A study of Homo sapiens with 6 samples.

Results

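The aminoacyl-tRNA synthetases are the enzymes that attach each amino acid to its transfer RNA. Their transcripts were followed here in A375 cells, a human melanoma cell line, with and without a stable knockdown of the kinase MAP4K5. A list of 38 genes was taken by name: 19 genes of cytosolic enzymes, 16 of mitochondrial enzymes and 3 scaffold genes of the cytosolic multi-synthetase complex. Each gene was read at its brightest probe set (by mean over the 6 arrays) among those paired with its symbol alone. This gave values for 36 of the 38, within 18132 genes in all. The scaffold genes AIMP2 and EEF1E1 were not analysed here, since no probe set used here carried their symbol alone.

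The study holds 6 expression arrays of total RNA. The control group is 3 arrays of A375 cells, and the knockdown group is 3 arrays of A375 cells that stably express a short hairpin RNA against MAP4K5. Both groups were grown in the same medium and received no treatment, per the labels' protocols. Each array is described as a biological replicate. How the cultures were separated is not stated, and p-values cover only the scatter of these 6 arrays, which may be technical. The sources used here do not give the hairpin's sequence, whether the control cells carried a vector, or whether the knockdown line is 1 clone. Loss of MAP4K5 therefore cannot be told apart from anything else that the hairpin, or the derivation of the line, brought with it.

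A synthetase activates its amino acid with ATP and joins it to the matching transfer RNA, which an elongation factor then carries to the ribosome. Human cells use a cytosolic set of these enzymes and a mitochondrial set that is also encoded in the nucleus, and most amino acids have a separate gene for each. Several cytosolic enzymes sit in a large complex held together by AIMP1, AIMP2 and EEF1E1, while the others are free. When amino acids run short, uncharged transfer RNA activates the kinase GCN2, phosphorylation of eIF2 raises translation of the transcription factor ATF4, and ATF4 induces amino acid synthesis and transport genes together with many cytosolic synthetases. This programme is called the integrated stress response.

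The control arrays differed among themselves. Over all genes, control replicates 1 and 3 correlated at 0.997 (Pearson's r across genes, which are not independent replicates), but each correlated at 0.992 with control replicate 2, which correlated at 0.993 to 0.994 with the knockdown arrays. The median absolute log2 difference over the 36 measured members was 0.12 between controls 1 and 3. It was 0.26 and 0.20 between control 2 and controls 1 and 3, and 0.10 to 0.13 between control 2 and the knockdown arrays. Results are therefore given with and without control replicate 2, and the knockdown mean is also set against that array alone, as a value with no test. Because control 2 was set apart on these same values, p-values of fits without it are not independent evidence of a difference. MAP4K5 measured 76.3 to 78.1 in the 3 controls, control 2 included, and 18.8 to 20.3 in the knockdown arrays (limma log2 fold change -1.98 ± 0.08 SE, adjusted p = 2.9e-05).

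As to the labelled cell type, vimentin (VIM, 3579 to 3888) and the neural crest genes SOX10 (22.1 to 37.7), PAX3 (28.2 to 41.8) and MITF (50.6 to 122) were measured above the median gene, at 8.68. S100A1, from the same marker list, lay under the median gene, at 4.43 to 5.74, and DCT had no value here. SOX10 and the calcium-binding S100B fell (-0.54 and -1.31, limma adjusted p = 0.0286 and 0.00256) and MITF rose (0.99, adjusted p = 0.0114). The pigment cell genes PMEL, MLANA and TYR lay at 2.42 to 3.9. The summed levels of other cell types' markers were 17.4 to 19.6 in control and 24.7 to 26.7 in knockdown arrays for 5 epithelial genes, where KRT14 rose (1.09 ± 0.16 SE, limma adjusted p = 0.00687). They were 21.6 to 21.8 and 18.8 to 19.6 for 5 fibroblast genes, 49.1 to 62.7 and 50.3 to 52.3 for 4 leukocyte genes (CD68 carried most of it, and PTPRC and CD3E lay at 2.15 to 3.15), and 12.4 to 13.6 and 13.9 to 16.6 for 3 endothelial genes. Their part in the results was not tested.

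Of the 36 measured members, 2 fell, 1 rose and 33 were not called (limma, Benjamini-Hochberg adjusted p under 0.05 over all 18132 genes). Of all genes 7.83% were called, 4.13% lower and 3.7% higher, so the members' count is near the background. IARS1 and LARS1, the isoleucine and leucine enzymes of the cytosolic complex, fell, and CARS2, the mitochondrial cysteine enzyme, rose. Without control replicate 2, 14 members fell and 5 rose, where 10.1% and 10.5% of all genes did. The cytosolic genes made up 12 of those 14. With weights estimated per array, 11 members fell and 4 rose (8.47% and 8.64% of all genes), and with the replicate number as a block 3 fell and 1 rose (3.7% and 2.86%).

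The cytosolic and mitochondrial sets differed in the sign of their medians. The median log2 fold change, knockdown minus control, was -0.51 over 19 cytosolic genes and 0.15 over 16 mitochondrial genes, beside 0.01 over all genes. Of the cytosolic genes, 15 had a negative and 4 a positive fold change, and of the mitochondrial genes 3 and 13. Log2 fold changes of at least 0.5 in size were measured in 10 cytosolic genes, all lower, and in 1 mitochondrial gene, higher, where 4.26% of all genes were that far lower and 3.31% that far higher. All 3 knockdown arrays lay below all 3 controls in 12 cytosolic genes and 1 mitochondrial gene, a pattern that 13.2% of all genes showed. They lay above all controls in 0 cytosolic and 6 mitochondrial genes, as 14.9% of all genes did. Members are not replicates, and the median of each set was given no test.

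Each array was also read as a deviation from the gene's own 6-array mean. The median cytosolic deviation was 0.40 for control 1, -0.18 for control 2 and 0.58 for control 3, and it was -0.30 to -0.21 over the knockdown arrays. The median mitochondrial deviation was -0.17, -0.02 and -0.03 for the same controls, and 0.05 to 0.08 over the knockdown arrays. On the cytosolic set, control 2 thus lay outside the knockdown range but close to it, and far from the other controls. Against control 2 alone the cytosolic median difference was -0.08, against -0.72 without that array, and the mitochondrial one 0.12, against 0.21.

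**Figure D1:**
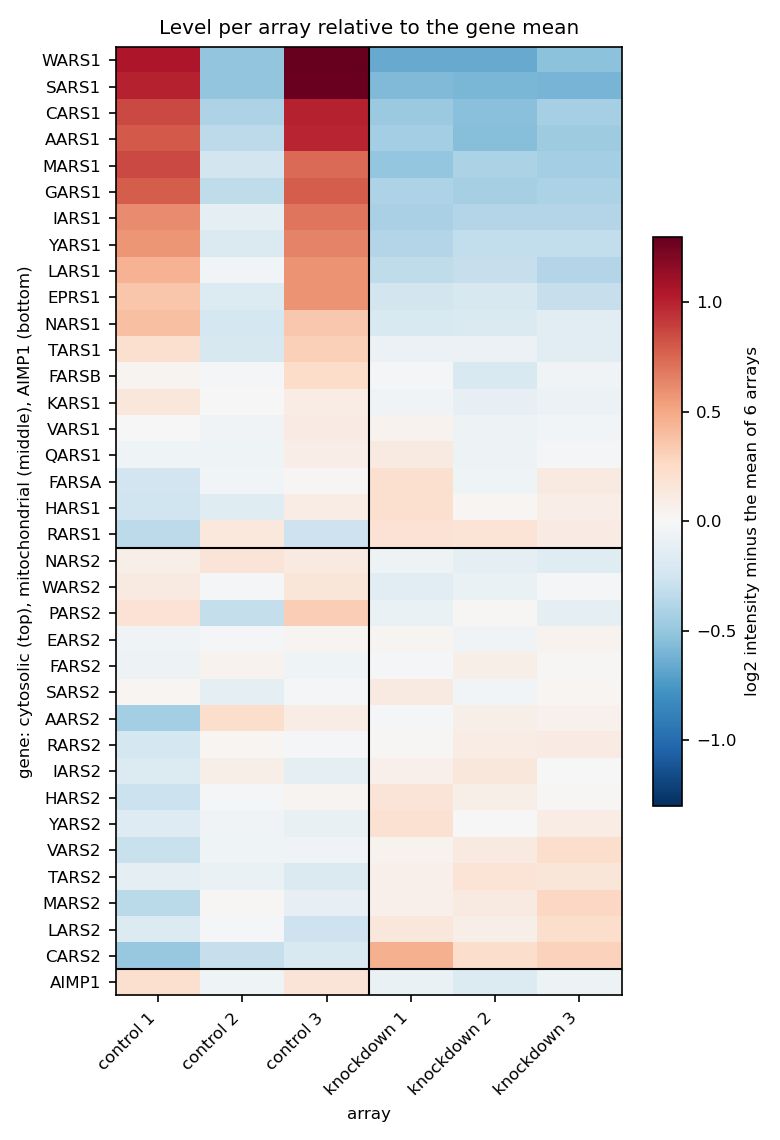
Log2 intensity of each measured member in each of the 6 arrays (columns), minus the mean of the gene over all arrays (colour), with cytosolic enzymes at the top, mitochondrial enzymes in the middle and AIMP1 at the bottom, each block sorted by fold change. Controls 1 and 3 stand high for the upper cytosolic genes (block medians 0.40 and 0.58), while control 2 (-0.18) lies near the knockdown arrays (-0.30 to -0.21).

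Among the enzymes of the complex, IARS1 measured 1118, 670.4 and 1177 in controls 1, 2 and 3, and 543, 558 and 561 in the knockdown arrays. All 3 knockdown values lay below the lowest control. IARS1 fell 1.73-fold (log2 -0.79 ± 0.19 SE, limma adjusted p = 0.0449). LARS1 measured 447, 318 and 488 in the controls and 259.6, 265 and 250.4 in the knockdown arrays, again without overlap. It fell 1.59-fold (-0.67 ± 0.15, limma adjusted p = 0.0343).

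Both calls were narrow. Leaving out any array other than control 2 ended them, with adjusted p of 0.136 to 0.162 for IARS1 and 0.103 to 0.129 for LARS1, while these 5 fits gave fold changes of -0.80 to -0.64 for IARS1 and -0.69 to -0.55 for LARS1. Without control 2 they fell further, at -1.05 and -0.85 (limma adjusted p = 0.00012 and 0.000403). Against control 2 alone the knockdown mean lay 0.27 lower for IARS1 and 0.30 lower for LARS1, the largest such gaps among the cytosolic genes. In a test per probe set, 1 of 4 probe sets of IARS1 (adjusted p 0.0494 to 0.0698) and 3 of 3 of LARS1 (0.0383 to 0.0492) were called lower.

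MARS1, the methionine enzyme, which charges the initiator as well as the elongator transfer RNA, measured 429, 201 and 395 in the controls and 167, 178 and 174 in the knockdown arrays. Its log2 fold change of -0.91 ± 0.25 was not called (limma adjusted p = 0.066), and without control 2 it fell by 1.25 (adjusted p = 7.46e-05). EPRS1, whose single chain charges both glutamate and proline, measured 387, 267 and 453 in the controls and 255, 261 and 245 in the knockdown arrays (-0.51 ± 0.17, limma adjusted p = 0.122). Without control 2 it fell by 0.72 (adjusted p = 0.00152). In both genes control 2 lay just above the knockdown arrays and well below the other controls.

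The other 3 complex enzymes showed smaller differences. KARS1, the lysine enzyme, which serves cytosol and mitochondria from 1 gene, measured 968 to 1078 in controls and 899 to 942 in knockdown arrays, without overlap (-0.16 ± 0.08, limma adjusted p = 0.288). QARS1, the glutamine enzyme, measured 222 to 246 and 222 to 252 (0.02 ± 0.09, adjusted p = 0.919). RARS1, the arginine enzyme, measured 301, 420.1 and 316 in controls and 436, 431 and 412 in knockdown arrays, so that it was lower, not higher, in controls 1 and 3, with control 2 among the knockdown arrays. Its fold change was 0.32 ± 0.13 (limma adjusted p = 0.179), and it rose by 0.47 without control 2 (adjusted p = 0.0047), the only cytosolic gene that rose in that fit.

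AIMP1, a scaffold of the complex, measured 221, 184 and 214 in controls and 180.1, 169 and 183 in knockdown arrays (-0.21 ± 0.10, limma adjusted p = 0.219). Without control 2 its brightest probe set stood at -0.29 (limma adjusted p = 0.0364). Its 5 probe sets disagreed in sign, with fold changes of -0.21 to 0.30, and 2 of 5 were negative. The mean over its probe sets gave 0.04. No direction is given for AIMP1 for this reason, although its brightest probe set is counted among the 14 members that fell without control 2.

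**Figure D2:**
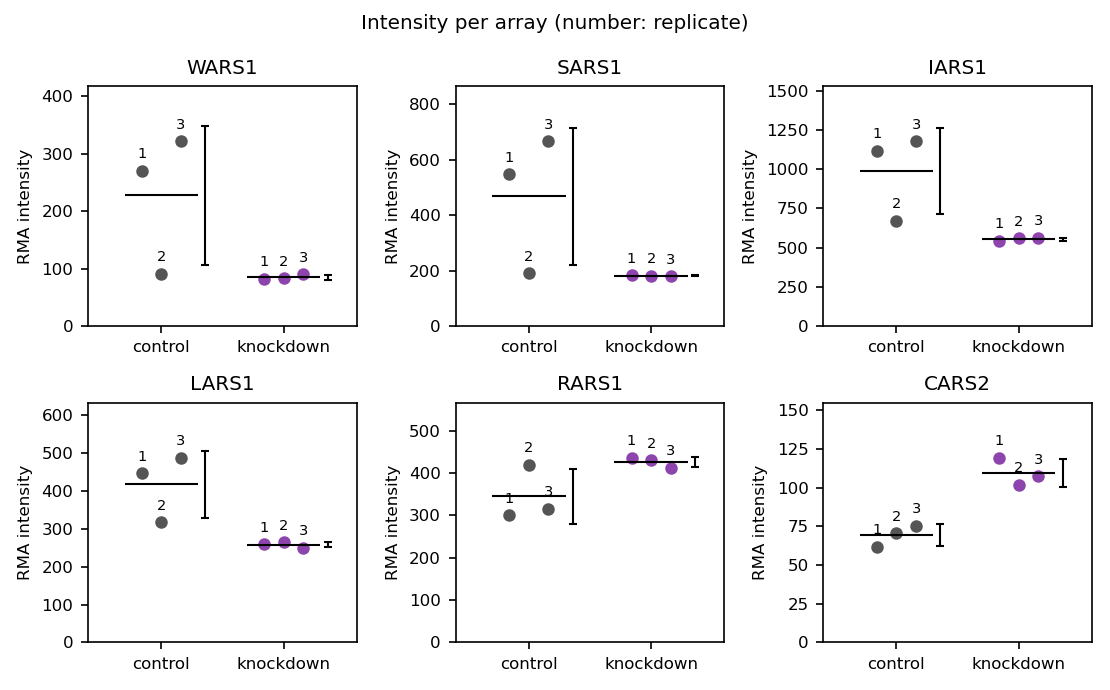
Intensity (linear scale) of 6 members in each control and knockdown array, numbered by replicate, with the group mean (horizontal line) and SD (bar beside it, n = 3 per group). In WARS1, SARS1, IARS1 and LARS1 control 2 is the lowest control and lies nearest the knockdown arrays, in RARS1 it is the highest control (420.1), and in CARS2 it lies between the other controls (70.7).

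Among the free enzymes, WARS1 and SARS1 showed the widest gaps. WARS1, the tryptophan enzyme, a gene also induced by interferon gamma, measured 270.1, 91 and 321 in the controls and 82.5, 82.7 and 89.9 in the knockdown arrays. Its fold change was -1.23 ± 0.40 (limma adjusted p = 0.107), and without control 2 it fell 3.47-fold (-1.79, adjusted p = 3.28e-05). SARS1, the serine enzyme, whose product is also the starting point of selenocysteine, measured 547, 191 and 667 in the controls and 183, 181 and 179 in the knockdown arrays. It stood at -1.19 ± 0.39 (limma adjusted p = 0.112), and without control 2 it fell 3.34-fold (-1.74, adjusted p = 3.77e-05). In both genes the knockdown arrays lay below all controls, but by only 0.10 and 0.08 against control 2 alone.

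CARS1, the cysteine enzyme, measured 248, 104 and 274 in the controls and 97.6, 93.5 and 102 in the knockdown arrays (-0.98 ± 0.32, limma adjusted p = 0.106). AARS1, the alanine enzyme, measured 248, 113 and 283 in the controls and 105, 97.3 and 104 in the knockdown arrays (-0.96 ± 0.30, limma adjusted p = 0.0894). The groups did not overlap in either gene. Without control 2 both fell, with fold changes of -1.42 and -1.37 (adjusted p = 4.93e-05 and 7.46e-05). With the replicate number as a block, AARS1 was called (limma adjusted p = 0.0461), although the numbers are not said to pair the arrays.

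GARS1, the glycine enzyme, whose gene supplies both the cytosolic and the mitochondrial form, measured 1461, 674 and 1458 in the controls and 643, 629 and 637 in the knockdown arrays (-0.83 ± 0.27, limma adjusted p = 0.104). YARS1, the tyrosine enzyme, measured 317, 186 and 333 in the controls and 163, 170.5 and 170.5 in the knockdown arrays (-0.69 ± 0.20, limma adjusted p = 0.0772). Again control 2 stood close above the knockdown arrays. Without control 2 these genes fell, at -1.20 and -0.95 (adjusted p = 5.77e-05 and 0.000197).

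NARS1, the asparagine enzyme, and TARS1, the threonine enzyme, showed smaller differences and overlapping groups. NARS1 measured 1488, 965 and 1445 in controls and 987 to 1031 in knockdown arrays (-0.35 ± 0.16, limma adjusted p = 0.232). TARS1 measured 822, 617 and 881 in controls and 641 to 677 in knockdown arrays (-0.20 ± 0.13, adjusted p = 0.41). In both, control 2 was the lowest of all 6 arrays. Without it they fell, at -0.55 and -0.36 (limma adjusted p = 0.00211 and 0.0166), while against it alone the knockdown mean lay 0.06 and 0.11 higher.

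The remaining free enzymes were FARSA and FARSB, the catalytic and the other subunit of the phenylalanine enzyme, HARS1 for histidine and VARS1 for valine. Their fold changes were 0.18, -0.18, 0.21 and -0.03, and their limma adjusted p ran from 0.297 to 0.858. They were also not called without control 2 (adjusted p 0.157 to 0.657). FARSB, with 153 to 182 in controls and 134 to 152 in knockdown arrays, narrowly missed overlap between the groups, while FARSA, HARS1 and VARS1 did.

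The members measured at several probe sets mostly gave the same sign. The 36 genes held 93 probe sets, and in 21 of the 28 genes with more than 1 probe set all had the same sign. Among probe sets at or above the median gene, 68 of 72 had the sign of the one used, and the exceptions lay in AIMP1 and QARS1. The dimmest probe set of WARS1 lay at 2.2 in intensity and showed -0.04, while its other 3 gave -1.54 to -1.17. All 5 probe sets of MARS1 were negative, at -1.17 to -0.64. SARS1 and YARS1 had a single probe set each, and that of YARS1 has an ID ending in _s_at, which can bind several transcripts.

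**Figure D3:**
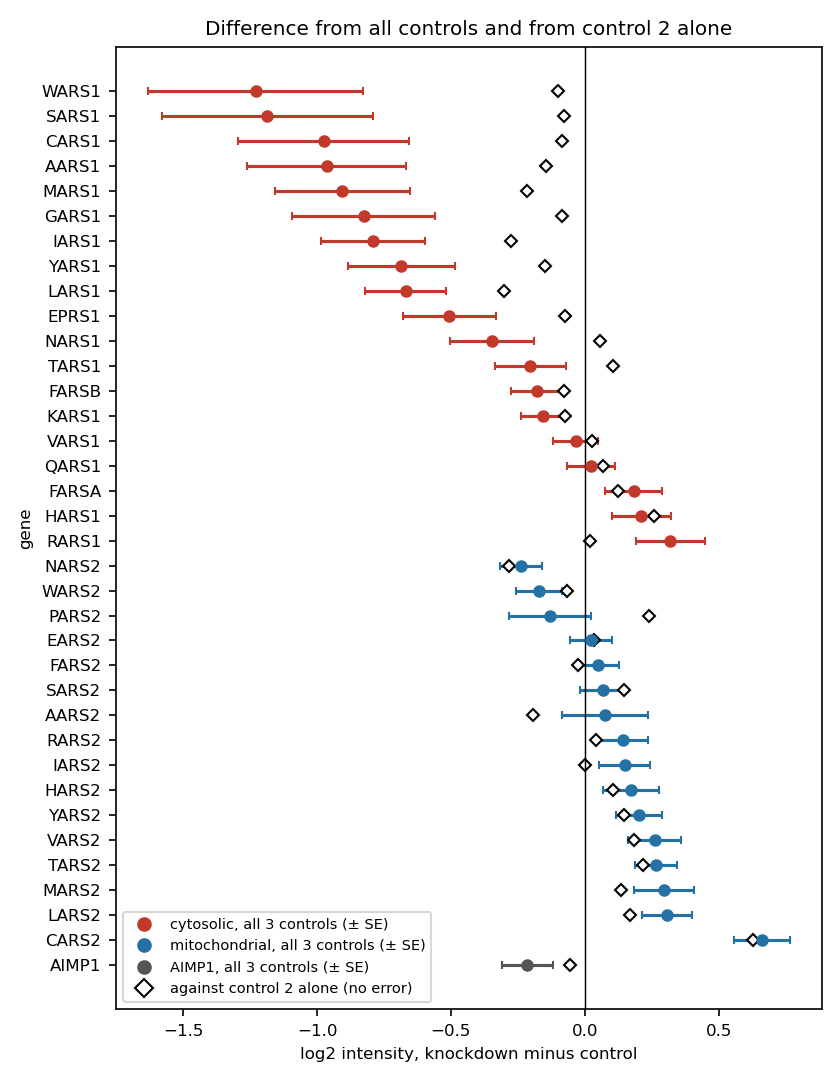
Log2 difference of knockdown and control for each measured member, against all 3 controls (filled circles with SE from the limma fit) and against control replicate 2 alone (open diamonds, with no error). The upper cytosolic genes reach -1.23 against all controls but lie between -0.30 and -0.07 down to EPRS1 against control 2 alone, whereas CARS2 stands at 0.66 and 0.63.

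Of the mitochondrial enzymes, CARS2 rose and the other 15 were not called. CARS2 charges cysteine in mitochondria and also makes cysteine persulfides. It measured 61.8, 70.7 and 75.5 in the controls and 119, 102 and 107 in the knockdown arrays. The groups were well apart, and the 3 controls were alike. CARS2 rose 1.58-fold (log2 0.66 ± 0.10 SE, limma adjusted p = 0.0101), by 0.68 without control 2 (adjusted p = 0.0047), and the knockdown mean lay 0.63 above control 2 alone. All 3 of its probe sets were called higher. The call was lost narrowly without knockdown replicate 1 (adjusted p = 0.0606) or 3 (0.051), and leaving out each array in turn gave fold changes of 0.58 to 0.73.

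Smaller differences without overlap were measured for LARS2, TARS2, MARS2, VARS2 and YARS2, which charge leucine, threonine, methionine, valine and tyrosine in mitochondria. TARS2 measured 58 to 62.3 in controls and 69.3 to 74.8 in knockdown arrays (0.27 ± 0.08, limma adjusted p = 0.0826). LARS2 measured 23.8 to 28.5 and 30.4 to 33.7 (0.31 ± 0.09, adjusted p = 0.09). MARS2 measured 16.9 to 21.7 and 22.4 to 25.8 (0.30 ± 0.11, adjusted p = 0.153). These 3 passed without control 2 (adjusted p 0.017 to 0.039) and TARS2 also with the lowest 50% of genes left out (0.0454). The mean over all probe sets of a gene gave smaller values for TARS2 (0.090, adjusted p = 0.662), whose other probe set was negative at -0.09, and for MARS2 (0.17) and VARS2 (0.14, or 0.084 without _x_at and _s_at probe sets). VARS2 (0.26) and YARS2 (0.20) were not called in either the full fit or that without control 2.

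NARS2, the mitochondrial asparagine enzyme, was the 1 mitochondrial gene with all knockdown arrays (47.3 to 50.2) below all controls (55.4 to 59.1). Its fold change was -0.24 ± 0.08 and was not called (limma adjusted p = 0.105). Here control 2, at 59.1, was the highest array, unlike in most of the cytosolic genes. PARS2, the mitochondrial proline enzyme, measured 10.1, 7.18 and 11.1 in controls and 8.15 to 8.94 in knockdown arrays, close to the median gene. It stood at -0.13 (adjusted p = 0.675) and fell by 0.32 without control 2 (adjusted p = 0.0376).

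AARS2, EARS2, FARS2, HARS2, IARS2, RARS2, SARS2 and WARS2 had overlapping groups. Their fold changes ran from -0.17 (WARS2) to 0.17 (HARS2), with limma adjusted p of 0.281 to 0.9, and they were not called without control 2 either. HARS2 gave a larger value, 0.32, as the mean of its probe sets (limma adjusted p = 0.102), since its other probe set stood at 0.48. IARS2 was the brightest mitochondrial gene, at 296 to 371, and AARS2 (8.86 to 14.1) and PARS2 the dimmest.

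Genes of both compartments were then set side by side for 15 amino acids, with FARSA and FARSB each against FARS2, which gave 16 pairs. The cytosolic fold change was the lower one in 13 of 16 pairs, and in 11 the cytosolic value was negative and the mitochondrial one positive. Cysteine showed the widest gap, with CARS1 at -0.98 and CARS2 at 0.66. Serine (-1.19 and 0.07), methionine (-0.91 and 0.30) and tryptophan (-1.23 and -0.17) followed. Arginine, histidine and the FARSA pair of phenylalanine went the other way, by 0.18, 0.04 and 0.13, and histidine turned to -0.02 without control 2. Against control 2 alone the cytosolic difference was the lower one in 12 of 16 pairs, with gaps from -0.71 for cysteine to 0.34 for asparagine.

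**Figure D4:**
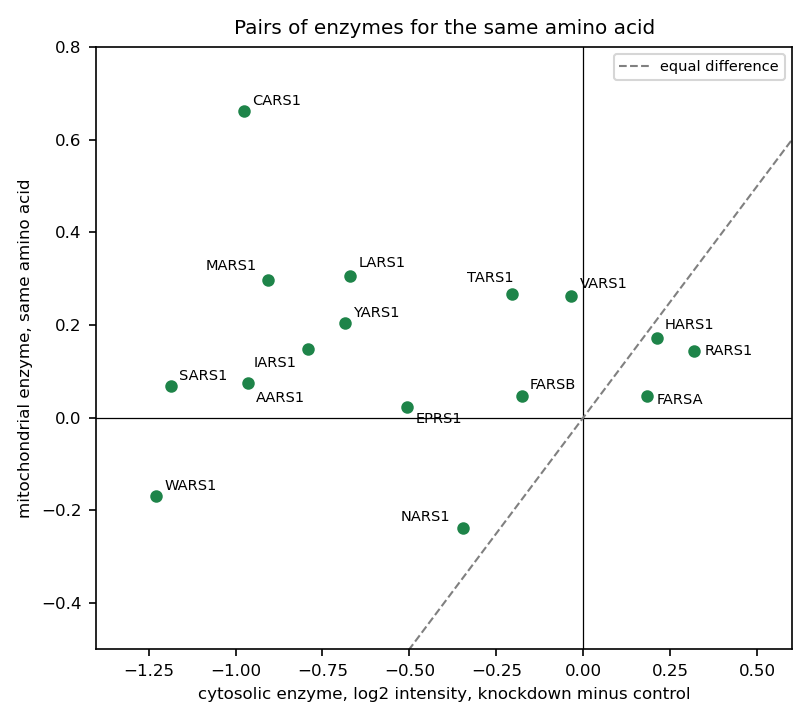
Log2 fold change (knockdown minus control) of the cytosolic gene (horizontal) against that of the mitochondrial gene for the same amino acid (vertical), each of 16 points named by its cytosolic gene, with a dashed line where both would be equal. Of the points, 13 lie on the side of the line where the cytosolic value is lower, CARS1 with CARS2 farthest from it.

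The cytosolic set was also split between the 12 genes linked to ATF4 in general knowledge (AARS1, CARS1, EPRS1, GARS1, IARS1, LARS1, MARS1, NARS1, SARS1, TARS1, WARS1 and YARS1) and the other 7. The 12 had a median log2 fold change of -0.81, with fold changes of -1.23 to -0.20, all negative. The 7 others had a median of 0.02 and ran from -0.18 to 0.32. In the full fit 2 of the 12 and 0 of the 7 were called, with 10 and 1 at an unadjusted limma p under 0.05, as 23.5% of all genes were. Without control 2, all 12 fell, and of the 7 others 1 rose and 6 were not called. The list was written with results of these arrays known, so its direction is not independent evidence.

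Splits by place in the complex and by structural class gave closer medians. The 7 complex enzymes had a median of -0.51 and the 12 free ones -0.52. The 9 class I enzymes, whose catalytic domain is a Rossmann fold, had a median of -0.69, and the 9 class II enzymes, built on another fold, -0.20. EPRS1, which holds a domain of each class, was left out of that split.

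The promoters of the members were searched for the core of the amino acid response element, TGATGCAA, to which ATF4 binds as a dimer with a C/EBP partner, and for the looser TGATGNAA, which contains it. Both strands were read, in windows from 250 bases before to 50 bases after each start site (RefSeq, GRCh38.p14). All member genes with a match are shown, so that the letters can be read beside the values. They are 7 cytosolic genes, each with a negative fold change, and the mitochondrial YARS2, at 0.20. Of all 19 cytosolic genes 15 had a negative fold change, as had 8571 of all 18132 genes. Each line reads 5′ to 3′ on the gene's own strand, and capitals mark the match. The core reads TTGCATCA where it lies on the opposite strand. GARS1, with TTTCATCA on the opposite strand, and YARS2 hold only the looser match.
AARS1: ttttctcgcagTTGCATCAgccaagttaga
CARS1: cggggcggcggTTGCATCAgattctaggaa
IARS1: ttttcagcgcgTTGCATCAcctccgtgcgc
MARS1: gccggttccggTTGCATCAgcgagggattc
NARS1: tctacgctctcTGATGCAAcgccggaatcg
TARS1: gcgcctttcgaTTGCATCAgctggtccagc
GARS1: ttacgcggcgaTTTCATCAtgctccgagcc
YARS2: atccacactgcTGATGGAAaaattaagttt

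These stretches lie at chr16:70289675-70289704 (minus strand) for AARS1, chr11:3057407-3057436 (minus) for CARS1, chr9:92293692-92293721 (minus) for IARS1, chr12:57488053-57488082 (plus) for MARS1, chr18:57621804-57621833 (minus) for NARS1, chr5:33440956-33440985 (plus) for TARS1, chr7:30594834-30594863 (plus) for GARS1 and chr12:32756076-32756105 (minus) for YARS2. The match began within 14 bases of the annotated start site in CARS1, IARS1, MARS1, NARS1 and TARS1. It began 33 bases before it in GARS1, 187 in AARS1 and 197 in YARS2.

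The core TGATGCAA was present in 6 of the 16 cytosolic genes that had a window, in 0 of 14 mitochondrial genes and in 0.866% of all 35116 windows. Counted by window, the cytosolic genes held it in 6 of 21, and in 1.08% of all genes with a window at least 1 held it. The looser TGATGNAA was present in 7 of the 16 cytosolic genes, 1 of 14 mitochondrial genes and 4.46% of all genes with a window. Counted by window, it was in 7 of 21 cytosolic windows and 3.62% of all windows. All 7 cytosolic genes with the looser match belonged to the 12 ATF4-linked genes, and their median log2 fold change was -0.83 (-0.98 to -0.20). Of the 16 cytosolic genes with a window, 10 were on that list, which was written with results of these arrays known. The overlap and the median are therefore not independent evidence.

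Low values were also measured in genes without a match in these windows. The 9 cytosolic genes with a window and no match had a median of -0.16 but included WARS1 at -1.23 and SARS1 at -1.19, the lowest of all. RARS1, at 0.32, was also among them. A match describes the letters in these windows and does not show binding. Sequence outside the windows and other variants of the element were not searched, so a missing match does not show that a gene lacks one.

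The genes around transfer RNA charging were then read from a list of 31 integrated stress response genes, of which 5 fell, 0 rose and 26 were not called, with a median of -0.94, where 4.13% of all genes fell. Without control 2, 29 of the 31 fell, where 10.1% of all genes did. ATF4 itself measured 1328, 817 and 1345 in controls and 737 to 759 in knockdown arrays (-0.61 ± 0.18, limma adjusted p = 0.0807), so that control 2 stood close to the knockdown arrays here too. DDIT3, which encodes the ATF4 partner CHOP, and ASNS, the asparagine synthetase, spread further, and the full fit did not call them. DDIT3 measured 89.4, 8.63 and 102 in controls and 8.01 to 9.51 in knockdown arrays (-2.29 ± 0.81, limma adjusted p = 0.131). Its control 2 and knockdown values thus lay close to the median gene, at 8.68. ASNS measured 1427, 321 and 1562 in controls and 222 to 238 in knockdown arrays (-1.94 ± 0.52, limma adjusted p = 0.0587). Without control 2 these 2 genes fell 10.9-fold and 6.41-fold. The median deviation from the gene mean over this list was 0.82, -0.40 and 0.91 for controls 1, 2 and 3 and -0.48 to -0.41 over the knockdown arrays. Over the 12 ATF4-linked synthetases it was 0.70, -0.23 and 0.71 for the controls and -0.41 to -0.40 over the knockdown arrays. Control 2 again lay nearer to the knockdown arrays than to the other controls, with a wider gap than over the stress response list.

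XPOT, the export receptor that carries mature transfer RNA out of the nucleus, was among the 5 that fell. It measured 620.0, 525 and 630.3 in controls and 408, 435 and 434 in knockdown arrays (-0.47 ± 0.10, limma adjusted p = 0.0254), and lay 0.30 lower than control 2 alone. The transcription factor JDP2 (-0.92 ± 0.18), the mitochondrial folate enzyme ALDH1L2 (-0.81 ± 0.17) and SHMT2, which makes glycine from serine in mitochondria (-1.01 ± 0.23), also fell. ALDH1L2 lay under the median gene, at 2.72 to 6.98. The fifth, PHGDH, the entry enzyme of serine synthesis (-1.28 ± 0.29), falls outside the rule for naming genes and was named after its values were seen. Of the 5, only JDP2 kept its call without an array other than control 2, namely control 1.

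Of 17 measured partners in charging and delivery, 1 rose, 1 fell and 15 were not called, with a median of -0.06. Of all genes 7.83% were called, so this count is near the background. Among those not called were EEF1A1 and TUFM, which carry charged transfer RNA in the cytosol and in mitochondria, and EEF1B2, EEF1D and EEF1G, which reload the cytosolic carrier, with fold changes of -0.19 to -0.02. GATB, a subunit of the enzyme that completes glutaminyl-tRNA in mitochondria, measured 17.3 to 21.5 in controls and 28 to 30.8 in knockdown arrays and rose (0.55 ± 0.10, adjusted p = 0.0204). With probe sets ending in _x_at or _s_at left out, GATB stood at -0.01 at the brightest that remained. SEPSECS, which makes selenocysteine on its transfer RNA, fell (-0.46 ± 0.11, adjusted p = 0.0442), but stood at -0.21 (adjusted p = 0.392) without such probe sets. Both calls held without control 2 and were lost without any other array.

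Since WARS1 also responds to interferon gamma, 9 measured genes of that response were read beside it. Of these 0 were called in the full fit (limma, with 2 of the 9 at an unadjusted p under 0.05, near the 23.5% of all genes), with a median of -0.01, and 1 fell without control 2. CXCL10 and IDO1 (2.26 to 3.19) and GBP2 (3.62 to 6.28) lay under the median gene, at 8.68, and GBP1 (5.94 to 10.1) around it, so a fall there could be missed. PSMB8, PSMB9, TAP1 and B2M lay above it. IRF1, with the smallest p, measured 16.7, 11.6 and 16.3 in controls and 8.57 to 10.7 in knockdown arrays (-0.57 ± 0.16, limma adjusted p = 0.0628), but stood at -0.18 as the mean of its probe sets.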

How the data were processed

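The authors deposited 1 linear intensity for every probe set and array. RMA is the tool named in the submitters' processing notes; it corrects background, equalizes arrays and narrows differences between dim probe sets. Array medians were 4.85 to 4.94. No depth applies, and the number of arrays limits the precision.

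Of 49293 probe sets, 44988 were paired with 1 symbol, 1832 with several and 2473 with none. Symbols were checked by Entrez identifier against RefSeq (GRCh38.p14), which changed 0. For each of 18132 genes the probe set with the highest mean log2 intensity was used, without a pseudocount or a filter. Knockdown was compared with control over all genes by limma 3.58.1 in R 4.3.3 (lmFit, eBayes without a trend; Benjamini-Hochberg, threshold 0.05), tested on simulated data. Python 3.11.15 read the promoters.

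The members and lists were chosen with earlier results of these data known. Members with an adjusted p under 0.05 or a log2 fold change of at least 0.5 in size were named with all values, the others by range. ATF4, DDIT3, ASNS, XPOT and up to 4 called genes per other list, or the one with the smallest p, were named.

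Alternatives were a replicate block, an intensity trend, array weights, repeat quantile normalization, a common median, leaving out the lowest 25% or 50% of genes, the mean of probe sets, leaving out probe sets ending in _x_at or _s_at, each array left out, and control 2 alone. Replicate numbers are not said to pair the arrays. Deviations of same-numbered arrays from their group means correlated at -0.08, 0.02 and 0.06. With 3 arrays per group this cannot show whether the cultures were paired.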

Additional observations from a re-analysis of the deposited data

How the results depend on the processing

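The count of members that fell, 2 with all arrays, was 11 with array weights, which limma estimates from the arrays, and 0 to 14 when 1 array was left out, the 14 without control 2 and the 0 without any other array. The count that rose, 1 with all arrays, was 4 with array weights, 2 with the lowest 50% of genes left out, and 0 to 5 with 1 array left out, the 0 without knockdown replicate 1 or 3 and the 5 without control 2. In the other alternatives the counts stayed within 1.5 times. With the replicate block 3 fell and 1 rose. The cytosolic median was -0.077 against control 2 alone, and -0.72 to -0.34 with 1 array left out. The mitochondrial median was 0.086 to 0.21 with 1 array left out. Against control 2 alone, with no test, signs turned for NARS1 (0.055), TARS1 (0.11), VARS1 (0.028), AARS2 (-0.19), FARS2 (-0.024), IARS2 (-0.00026), PARS2 (0.24) and DDIT3 (0.028). In other alternatives signs turned, with none of these values called, for QARS1 (-0.11 with the mean of probe sets, and -0.032 to 0.071 with 1 array left out, below 0 without control 1, control 2 or knockdown 1), VARS1 (-0.068 to 0.010 with 1 array left out, above 0 without control 3), AARS2 (-0.13 without control 1), SARS2 (-0.0075, mean of probe sets), AIMP1 (0.043, mean of probe sets) and GATB (-0.0074 with _x_at and _s_at sets left out). IARS2 and YARS1 have no other kind of probe set. Control replicate 2 decides most of the cytosolic calls, and the cause of its difference was not tested.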
